A study of Drosophila melanogaster with 3 samples.

Results

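MicroRNA precursor genes are the genes whose transcripts fold into the hairpins from which microRNAs are cut. All 260 such genes annotated on the 6 main chromosome arms of Drosophila melanogaster, of 18164 annotated genes there with transposable elements left out, were set against the binding peaks of unpg, a homeodomain transcription factor. They were found as the genes with a transcript of biotype pre_miRNA in Ensembl release 115, which holds 262 in all. Of the 260 precursors, 166 lay wholly inside a protein-coding gene on either strand, 122 in an intron and 44 overlapping an exon, and the other 94 did not. Precursors at most 10 kb apart were joined into 198 loci, since neighbours share peaks: 27 loci held more than 1 precursor, together 89 of them, and the largest held 12.

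Chromatin was precipitated from whole embryos of 4 to 16 hours of a transgenic line, unpg-GFP, which stably expresses unpg with GFP, a fluorescent protein used here as an antibody tag, at its C-terminal end. The 3 biological replicates, numbered 3, 4 and 5, were the only group. The sample descriptions name an anti-GFP antibody, while the antibody field names unpg. The dependence of each peak on the tag was not tested, since no untagged precipitation was analysed here, and whole embryos mix all cell types. The deposited data were 5 peak lists on the dm6 assembly: 30000 peaks for each replicate, 30000 for the pooled replicates, and 7176 in the list that passed the irreproducible discovery rate (IDR), a measure of how well ranks agree between replicates. A summit is the position of highest signal within a peak. Rank 1 is the peak of highest deposited signal value in its list, a score of the authors on an unstated scale. Read counts are not part of these lists, and the depth behind a peak is unknown.

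A microRNA is cut in sequence by the nucleases Drosha and Dicer from a primary transcript, and pairs with target messenger RNAs mainly through its seed, bases 2 to 8 from its 5′ end. Many fly precursors sit in introns of protein-coding genes and can be transcribed with the host, while others have long noncoding primary transcripts of their own, so the start that drives a precursor may lie many kilobases away. Several are known regulators of growth, cell death and neural fate in the fly embryo, and unpg is known from the embryonic brain and the cerebral branch of the trachea.

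The microRNAs below are those on which the results turn, each shown by a mature arm that RefSeq places on the Release 6 genome. They read 5′ to 3′, with the seed in capitals. The first pair has the seed GACUAGA and lies beside the strongest peak near any precursor. The next pair has the seed AUUGCAC and shares a peak within the gene jigr1. The following 5 have the seed AUCACAG, carried by 14 precursors, more than any other seed in the annotation. The last 5 are single precursors described in the results.
mir-279: uGACUAGAuccacacucauuaa
mir-996: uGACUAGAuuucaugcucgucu
mir-92a: cAUUGCACuugucccggccuau
mir-92b: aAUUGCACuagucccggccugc
mir-2a-1: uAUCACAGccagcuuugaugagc
mir-2b-2: uAUCACAGccagcuuugaggagc
mir-2c: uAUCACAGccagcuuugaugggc
mir-13a: uAUCACAGccauuuugaugagu
mir-11: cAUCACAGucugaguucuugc
mir-ban: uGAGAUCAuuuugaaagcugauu
mir-9a: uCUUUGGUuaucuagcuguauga
mir-275: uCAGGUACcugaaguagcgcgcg
mir-305: aUUGUACUucaucaggugcucug
mir-4974: aGAGAGUAuauugauuuuaggu

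The peaks beside them are shown by the 101 bases centred on the summit, read from the plus strand of Release 6. Capitals mark TAATTA, the core that many homeodomain proteins bind, and AATATT, a run of A and T found at 21.1% of all IDR summits. The first is the highest-ranked summit near a precursor (rank 35, upstream of mir-279), the next 3 are the nearest summits of mir-92a, mir-ban and mir-305, and the last falls inside the mir-4974 hairpin.
mir-279 summit, chr3R:29214394-29214494: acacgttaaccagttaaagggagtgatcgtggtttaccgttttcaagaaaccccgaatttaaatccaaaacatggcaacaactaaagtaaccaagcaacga
mir-92a summit, chr3R:25646986-25647086: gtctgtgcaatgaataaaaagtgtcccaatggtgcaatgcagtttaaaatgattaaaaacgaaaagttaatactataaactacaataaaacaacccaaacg
mir-ban summit, chr3L:642606-642706: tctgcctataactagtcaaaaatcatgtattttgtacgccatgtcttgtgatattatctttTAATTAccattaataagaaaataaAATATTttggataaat
mir-305 summit, chr2L:7426545-7426645: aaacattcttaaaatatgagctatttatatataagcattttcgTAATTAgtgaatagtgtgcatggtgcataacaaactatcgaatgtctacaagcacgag
mir-4974 summit, chr2L:21263949-21264049: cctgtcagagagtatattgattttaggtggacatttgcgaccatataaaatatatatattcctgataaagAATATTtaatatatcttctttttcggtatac
The window at mir-279 holds neither motif, and those of mir-ban and mir-305 hold TAATTA.

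The first question was how many precursors had a peak nearby. An IDR summit lay within 5 kb of 103 of the 260 precursors, or 39.6% (95% Wilson interval 33.9 to 45.7%), and of 82 of the 198 loci, or 41.4% (34.8 to 48.4%). The same distance of an IDR summit took in 31.6% of all arm positions, 47.9% of 13945 protein-coding gene starts and 48.6% of 290 tRNA genes. The precursors thus stood above arm positions and below gene starts and tRNA genes. Intervals cover counting error only, and precursors of 1 locus are not independent. The median distance from a precursor to the nearest IDR summit was 7179 bp (95% order-statistic interval 5595 to 8844 bp, quartiles 2733 and 18618 bp), against 5508 bp for protein-coding gene starts and 5307 bp for tRNA genes.

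The 3 replicates gave like shares. When the 7176 strongest peaks of each replicate were used, 41.9%, 39.6% and 41.9% of precursors had a summit within 5 kb in replicates 3, 4 and 5 (mean 41.2% ± 1.33, SD, n = 3). Protein-coding gene starts were at 49.9%, 48.9% and 50.1% in the same replicates (mean 49.6% ± 0.668), and arm positions at 32.6%, 32.0% and 31.8% (mean 32.1% ± 0.382). The precursors were below gene starts in all 3 replicates, with differences of -7.97, -9.26 and -8.20 percentage points (mean -8.48 ± 0.684, precursors minus gene starts; exact sign-flip permutation test, two-sided, p = 0.25, the smallest that 3 replicates allow). Of the 103 precursors with an IDR summit, 84 had a summit of the strongest peaks within 5 kb in all 3 replicates, 15 in 2 and 4 in 1. Of the 157 without one, 136 had none in any replicate and 4 had one in all 3. Since IDR calls were made from the replicates' own peaks, these counts describe the lists and are no independent check.

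**Figure D1:**
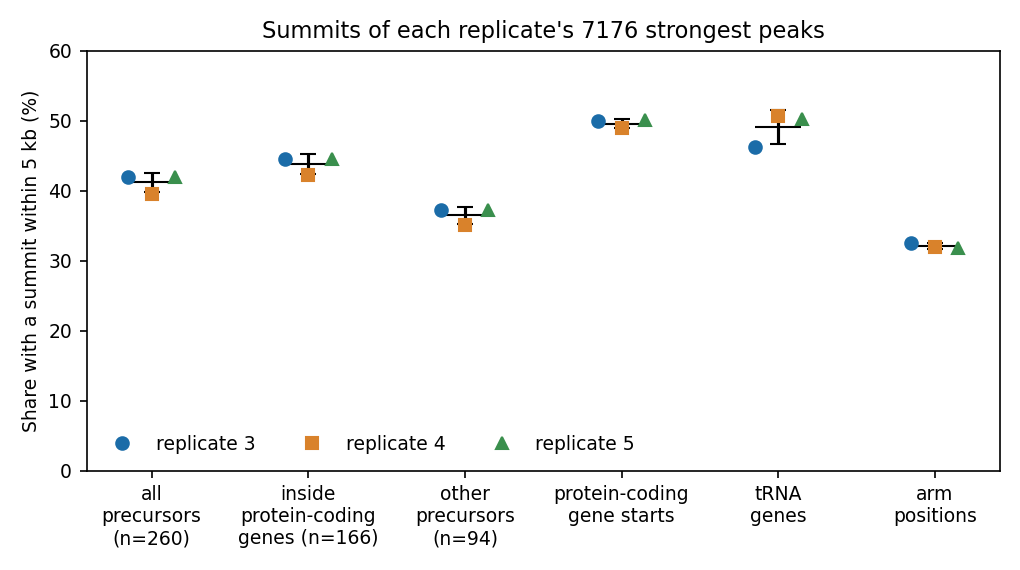
Share of precursors, protein-coding gene starts, tRNA genes and arm positions (y axis, %) with a summit of a replicate's 7176 strongest peaks within 5 kb, by group (x axis); points are replicates 3, 4 and 5, and bars the mean ± SD. All precursors averaged 41.2%, between gene starts at 49.6% and arm positions at 32.1%, and precursors inside protein-coding genes lay above the others in each replicate.

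Precursors inside a protein-coding gene and the others were close in the IDR list and a few points apart in the replicates. An IDR summit lay within 5 kb of 66 of 166 precursors inside a gene, 39.8% (32.6 to 47.4%), and of 37 of 94 other precursors, 39.4% (30.1 to 49.5%). Arm positions inside protein-coding genes were within this distance at 35.7%, and those outside at 23.4%. In the strongest peaks of replicates 3, 4 and 5, the shares were 44.6%, 42.2% and 44.6% inside genes, against 37.2%, 35.1% and 37.2% for other precursors. The difference was 7.34, 7.06 and 7.34 percentage points (mean 7.25 ± 0.163, inside minus other; exact sign-flip permutation test, two-sided, p = 0.25, the smallest possible). It was -0.00854 points within 1 kb and -2.85 points within 2 kb, so its direction depended on the distance used. Within 500 bp, 12 precursors inside genes (7.23%) and 3 others (3.19%) had an IDR summit.

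The strand of the host went with a larger gap. An IDR summit lay within 5 kb of 59 of 134 precursors on the same strand as their host, 44.0% (35.9 to 52.5%), and of 6 of 30 on the opposite strand, 20.0% (9.51 to 37.3%). Counted by locus, these were 54 of 122 loci (44.3%) on the same strand and 5 of 21 loci (23.8%, 10.6 to 45.1%) on the opposite strand. The median distance was 6056 bp for precursors on the same strand and 31082 bp for those on the opposite strand; counting each locus once, it was 6455 bp on the same strand and 16378 bp on the opposite strand. The precursors on the opposite strand include the 6 of the mir-959 cluster in DIP-theta and 3 of the mir-982 cluster in CG3626, which lie between 43319 and 74814 bp from an IDR summit. The difference was not tested, since genes are not replicates. Among the precursors outside protein-coding genes, a summit lay within 5 kb of 16 of the 41 (39.0%) inside a noncoding RNA gene on their strand. For the 53 in no such gene it was 21 (39.6%), a like share.

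**Figure D2:**
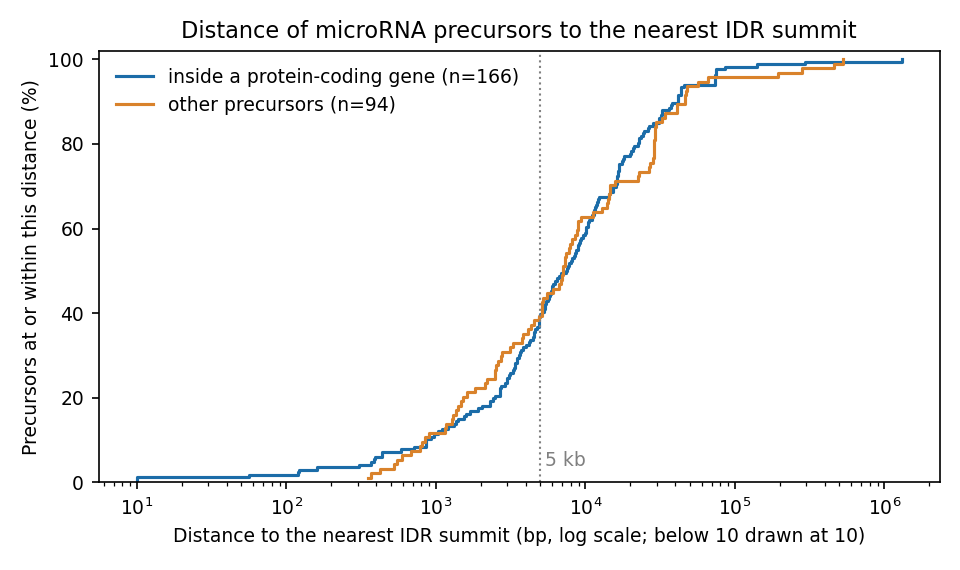
Cumulative share of precursors (y axis, %) by distance to the nearest IDR summit (x axis, bp, log scale), for the 166 precursors inside a protein-coding gene and the 94 others; the dotted line marks 5 kb. The curves run close together, crossing 5 kb at 39.8% and 39.4%, and the precursors inside genes reach smaller distances first.

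By arm, the shares were 42.9% on 2L, 40.0% on 2R, 45.2% on 3L and 43.1% on 3R, against 33.8%, 29.0%, 32.1% and 31.0% of positions on these arms. On the X, 17 of 58 precursors had a summit (29.3%, 19.2 to 42.0%), against 33.7% of its positions. Counted by precursor, it was the one large arm where precursors stood below positions. Of these 58 precursors, 12 belong to the mir-972 locus, with 1 IDR summit within 5 kb, and 5 to the mir-982 locus, with 0. These 2 clusters thus weigh on the X share, which does not describe its loci. Chromosome 4 holds only 2 precursors. The distance to a protein-coding gene start made little difference: a summit lay near 21 of 58 precursors within 1 kb of such a start (36.2%), 45 of 96 between 1 and 5 kb (46.9%), and 37 of 106 farther away (34.9%), with overlapping intervals.

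Few precursors had a peak on or beside the hairpin itself. An IDR summit lay inside or within 500 bp of 15 of the 260 precursors, 5.77% (3.53 to 9.30%), against 5.15% of arm positions and 20.3% of protein-coding gene starts. Another 15 precursors had their nearest summit between 500 and 1000 bp, 20 between 1000 and 2000 bp, and 53 between 2000 and 5000 bp. The share within 500 bp was thus close to that of arm positions.

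In the IDR list, 2 precursors held a summit inside the hairpin; in the pooled list mir-9a, mir-967, mir-958, mir-4975 and mir-2492 did too, with weaker peaks. The first is mir-4974 (2L, 21263933 to 21264034, plus strand), in an intron of CG8671 977 bp from the start of the gene, whose summit had rank 3529 in the IDR list and ranks 5584, 2491 and 3525 in replicates 3, 4 and 5. In replicate 3 the nearest summit of the strongest peaks lay 20 bp outside the hairpin, and in replicates 4 and 5 inside it. The second is mir-4962 (X, 3777382 to 3777505, plus strand), in an intron of Tlk, a gene of a chromatin-associated protein kinase, with rank 3804 and ranks 5733, 3501 and 3544 in the replicates. Its summit was inside the hairpin in all 3 replicates, and a stronger summit in the same gene, of rank 453, lay 2935 bp upstream. Stretches of hairpin length that hold a summit were not counted elsewhere on the arms. The hairpins with a summit inside thus cannot be called many or few.

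Beside these, the nearest were mir-4949, 56 bp from a summit of rank 7050 in ATPsynC, a gene of the mitochondrial ATP synthase, and mir-2491, 120 bp from a summit of rank 2308. The mir-4949 peak was among the weakest of the list, and its nearest summit among the 7176 strongest peaks lay 538, 81 and 143 bp away in replicates 3, 4 and 5. In the whole list of replicate 3 a summit lay 54 bp away, in a peak of rank 23556. At mir-9378, in an intron of CG17124, the summit was 161 bp upstream with rank 1140, and 153, 150 and 174 bp away among the strongest peaks of the replicates. At mir-2282, in an intron of sty, which encodes Sprouty, a brake on FGF signalling that limits tracheal branching, a summit of rank 5812 lay 306 bp downstream. The others within 500 bp were mir-92b, mir-14, mir-9377, mir-ban, mir-4918, mir-966, mir-275, mir-92a and mir-4968, at 122 to 438 bp. The precursors at the limit of 5 kb were mir-2281, at 4992 bp, and mir-9b, at 5099 bp.

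**Figure D3:**
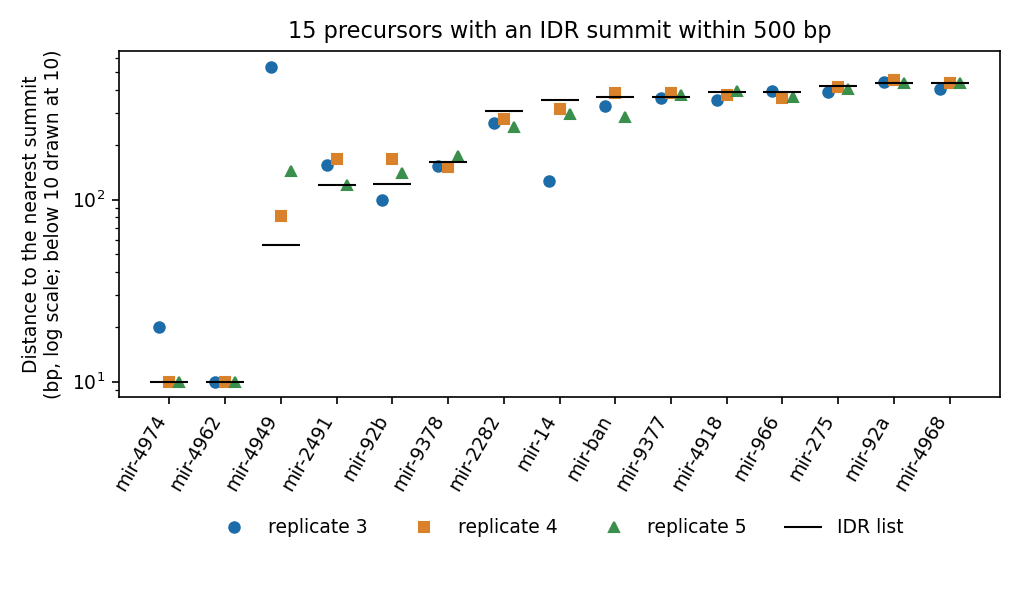
Distance (y axis, bp, log scale, values below 10 drawn at 10) from each of the 15 precursors with an IDR summit within 500 bp (x axis) to the nearest summit of the strongest peaks of replicates 3, 4 and 5 (points) and of the IDR list (bars). For most precursors the 3 points lie close to the bar; at mir-4949 replicate 3 stands apart at 538 bp, and at mir-14 at 126 bp.

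The strongest peak near any precursor was at the mir-279 and mir-996 locus. The mir-279 RNA is known to restrict the formation of carbon dioxide sensing neurons and acts with mir-996, which has the same seed. The peak on 3R, 29214227 to 29214639, had rank 35 in the IDR list and ranks 34, 35 and 44 in replicates 3, 4 and 5. Its summit lay 1141 bp upstream of mir-279 (29215585 to 29215684, plus strand), outside protein-coding genes and 118 bp from the start of lncRNA:CR31044, the noncoding gene that holds both precursors. The locus had 5 IDR summits within 5 kb, together with mir-4968 the most around any locus. The other 4 had ranks 431, 5136, 6289 and 6809, and the one of rank 431 lay 39 bp from the start of the neighbouring gene eEF1gamma.

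The peaks next in rank were mostly at starts of protein-coding genes or in their introns. They had rank 152 near mir-4943 (in CG5953, promoter), 155 near mir-9377 (in an intron of Tis11, which encodes an RNA-binding protein of messenger RNA decay), 227 near mir-9a, 308 near mir-1004 (at the start of bowl, a zinc finger gene of the odd-skipped family), 356 near mir-955 (CG14968) and 383 near mir-4972 (at a start of for, a cGMP-dependent protein kinase gene). The loci of mir-4962, mir-4981 and mir-87 followed, at ranks 453, 472 and 502. The peak of rank 227 lay 4300 bp upstream of mir-9a (3L, 19565131 to 19565208, plus strand), outside protein-coding genes, with ranks 228, 202 and 303 in replicates 3, 4 and 5. The mir-9a RNA limits the number of sensory organ precursors by repressing senseless. At mir-4981 the replicates were farther apart, with ranks 268, 1143 and 583. Beside mir-279 and mir-996, the loci with most IDR summits were mir-4968 in Mob2 with 5, of ranks 1010 to 6787, and mir-ban, mir-275 with mir-305, mir-375, mir-2496 and mir-4970 with mir-9378, with 4 each. The mir-375 precursor, known in mammals from the insulin-secreting beta cell, had them at ranks 1454, 2115, 3231 and 3971, the nearest 684 bp downstream.

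In all, 143 IDR summits lay within 5 kb of a precursor: 90 upstream, 51 downstream and 2 inside. Sides were not counted for other genes, so the upstream majority cannot be called particular to precursors. Of the 103 precursors, 64 had 1 summit, 21 had 2 and 18 had 3 or more. The median rank of the 143 was 3273, against 3588 over all IDR summits, and 29, 47, 28 and 39 of them fell into the 4 equal parts of the list from strongest to weakest. By place, 55 lay within 500 bp of a protein-coding start (38.5%, 30.9 to 46.6%), against 36.7% of all 7176 summits. Another 38 lay outside protein-coding genes, noncoding RNA genes included (26.6%, 20.0 to 34.4%), against 19.8% of all. Introns held 45 (31.5%, 24.4 to 39.5%), against 41.6% of all. The shares at promoters were thus alike, with fewer summits in introns near precursors.

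Within 50 bp of the summit, TAATTA stood at 17 of the 143 (11.9%, 7.56 to 18.2%), against 11.4% of all IDR summits. AATATT stood at 17 (11.9%, 7.56 to 18.2%), against 21.1% of all. GAGAGAG, a run of the kind bound by the GAGA factor of promoters, stood at 5 (3.50%, 1.50 to 7.92%), against 1.02% of all, near mir-9373, mir-4962, mir-4918, mir-8 and mir-317. TAATTA and AATATT equal their own reverse complements, GAGAGAG was searched on both strands, and the last letter of one of the first pair can be the first of the other. The median G and C content of these windows was 33.7% near precursors and 29.7% over all IDR summits, which moves with the share of an A and T run such as AATATT; its part in that share was not tested.

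**Figure D4:**
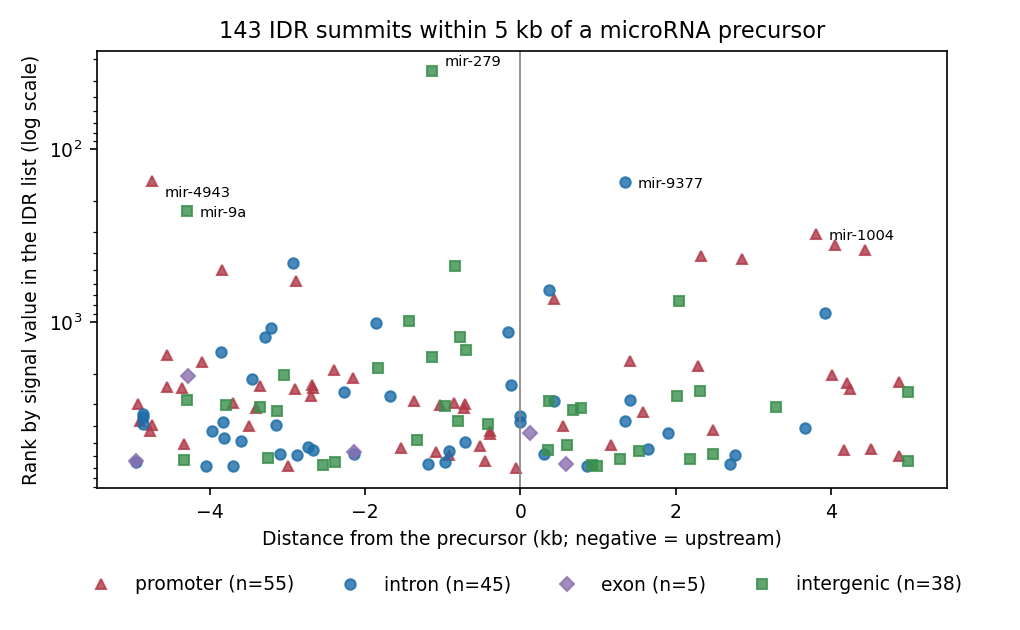
The 143 IDR summits within 5 kb of a precursor, by distance to the nearest precursor (x axis, kb, negative upstream) and rank by signal value (y axis, log scale, strongest at the top), with marks for the place of the summit. The summit of rank 35 upstream of mir-279 stands above all others, and 90 of the summits lie upstream.

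Host genes often had a peak at their own start. Of the 128 protein-coding genes that hold a precursor on their strand, 50 had an IDR summit within 500 bp of an annotated start (39.1%, 31.0 to 47.7%), against 22.8% of all protein-coding genes. Hosts were longer, with a median of 14094 bp against 2166 bp, and had more annotated starts, a mean of 2.21 against 1.41. The part of length and of the number of starts was not tested. Among the closest were RpS23, a ribosomal protein gene that holds mir-308, with a summit 3 bp from a start, and Gmap, a Golgi protein gene that holds mir-283, mir-304 and mir-12, with a summit at 5 bp. All 3 precursors in Gmap were more than 5 kb from an IDR summit, at 8953 to 10470 bp, so a window around the hairpin did not reach the host's peak. The same held for mir-1010, 22851 bp from a summit although its host SKIP had one 29 bp from a start. In spi, which encodes the EGF receptor ligand Spitz, a summit stood 217 bp from a start, and another, upstream of an internal start of the gene by 356 bp, lay 2702 to 3405 bp upstream of mir-2b-2, mir-2a-1 and mir-2a-2.

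Noncoding primary transcripts gave a like picture. Of the 37 noncoding RNA genes that hold a precursor on their strand, 11 had an IDR summit within 500 bp of a start (29.7%, 17.5 to 45.8%), and 9.66% of all 3001 noncoding RNA genes did. These hosts too were longer, with a median of 6436 bp against 605 bp. The closest were the transcripts of mir-bft (the bereft locus, which makes miR-263a, a protector of sense organs from cell death) at 22 bp, mir-14 at 52 bp, mir-8 at 67 bp, and mir-34 with mir-277 at 67 bp. The transcript of mir-279 and mir-996 followed at 118 bp. The long transcript lncRNA:let7C, with its start 12498 bp from a summit, was among those without one.

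The lists of precursors by known function gave the following, each count against 39.6% of all precursors and 41.4% of all loci. The lists overlap, with mir-14 and mir-278 in both the growth and the metabolism list. Of 15 precursors linked to growth and cell death, 11 had an IDR summit within 5 kb, at 6 of 10 loci. They include mir-2a-1, mir-2a-2, mir-2b-2, mir-2c, mir-13a, mir-13b-1 and mir-11, which are counted again by seed below. The bantam precursor, mir-ban (3L, 642208 to 642288, plus strand), which promotes growth and blocks apoptosis by repressing hid, had 4 IDR summits within 5 kb. The strongest, 2046 bp downstream, had rank 752 and ranks 623, 802 and 1006 in replicates 3, 4 and 5. The nearest, 368 bp downstream, had rank 2866, and it is the one shown above with TAATTA and AATATT in capitals. The mir-14 precursor, known from cell death and fat metabolism, lay 354 bp from a summit of rank 5483. Counting their 7176 strongest peaks, a summit lay 126, 314 and 295 bp away in replicates 3, 4 and 5. The IDR peak itself had ranks 9973, 7075 and 2333 there, so the summit at 126 bp in replicate 3 belongs to another peak.

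The 14 precursors with the seed AUCACAG, whose RNAs are known repressors of the cell death genes reaper, grim and sickle, were spread over 7 loci, and 8 of them at 4 loci had an IDR summit within 5 kb. A summit of rank 1598 (2071, 1292 and 1515 in replicates 3, 4 and 5) lay 1144 bp upstream of mir-2c, 1373 bp upstream of mir-13a and 1514 bp upstream of mir-13b-1. The spi intron holds 3 more members, with a summit of rank 2683 (2160, 2724 and 3370 in the replicates) near an internal start of the host. In E2f1, mir-11, which limits cell death driven by the host's own product, lay 3099 bp from a summit of rank 4239, which is placed 77 bp from a start of the neighbouring gene InR. The last, mir-308, lay 587 bp from a summit in RpS23. The members without a summit were mir-2b-1 at 7618 bp, mir-13b-2 at 10074 bp and the 4 of the mir-309 cluster. The seed AUUGCAC was carried by 6 precursors, all with a summit within 5 kb but at 2 loci only, so this is 2 peak neighbourhoods and not 6. At the first, a summit of rank 736 (654, 968 and 818 in the replicates) lay 436 bp downstream of mir-92a at a start of jigr1, and a summit of rank 4381 lay 122 bp downstream of mir-92b. At the second, mir-310, mir-311, mir-312 and mir-313 shared a summit of rank 5173, at the promoter of qsm.

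Of 7 precursors linked to metabolism and nutrient signalling, 6 had an IDR summit, at 5 of 6 loci. The mir-275 and mir-305 locus had 4, of ranks 3923, 4008, 6441 and 6474, the nearest 421 bp upstream of mir-275 and 551 bp downstream of mir-305, an RNA known from the gut stem cell lineage. The mir-8 precursor, which acts in the fat body on growth through insulin signalling, had 3, the nearest 810 bp upstream. The mir-33 precursor, in an intron of the lipid regulator SREBP, had 1 of rank 2132, 3465 bp upstream. The mir-277 precursor, a regulator of branched-chain amino acid breakdown, had 1 of rank 1854, 1836 bp upstream and shared with mir-34. Without a summit was mir-278, at 17934 bp.

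Of 17 precursors linked to neurons and sense organs, 6 had an IDR summit, at 5 of 14 loci. They were mir-279, mir-996, mir-9a, mir-276a at 2538 bp, mir-219 at 4294 bp and mir-7, a promoter of photoreceptor fate, at 4868 bp. The mir-276a call differed among replicates, with the nearest of the strongest summits 10668, 1227 and 2532 bp away in replicates 3, 4 and 5. The neuronal mir-124 was 8076 bp from a summit and mir-137 was 26636 bp away. The mir-9b, mir-79 and mir-9c precursors in grp lay 5099, 5283 and 5918 bp from a summit of rank 2544, just past the limit.

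Of 6 muscle and mesoderm precursors, only mir-92a and mir-92b had a summit. The muscle gene mir-1 lay 7337 bp from an IDR summit of rank 727, at 7335, 7361 and 7330 bp in replicates 3, 4 and 5 counting their 7176 strongest peaks. Weaker peaks lay closer to mir-1. A pooled summit stood at 98 bp, and summits of the whole lists of replicates 3, 4 and 5 at 549, 407 and 210 bp. The mir-133 precursor lay 28895 bp from an IDR summit. Of 4 timing precursors, mir-34 had a summit at 2750 bp. The let-7 cluster, whose RNAs time the passage to the adult, was just past 5 kb in all replicates: mir-125 lay 5184 bp, mir-let7 5497 bp and mir-100 6075 bp upstream of a strong summit of rank 368. Of 4 precursors in the Hox clusters, 2 had a summit. These were mir-iab-4 and mir-iab-8, which are cut from opposite strands of 1 hairpin locus in the bithorax complex and repress Hox genes. They shared a summit of rank 6863 at 860 bp, with ranks 6378, 5871 and 23227 in replicates 3, 4 and 5, so that it was not among the strongest peaks of replicate 5, where the nearest was 8876 bp away.

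None of the 8 precursors of the mir-309 cluster, known to clear maternal messenger RNAs in early embryos, had an IDR summit within 5 kb, the nearest being 28455 to 29445 bp away. Of 21 precursors in clusters known from the testis, 4 had a summit, at 2 of 4 loci. The mir-978 and mir-979 precursors lay 4620 and 4016 bp from 1 peak of rank 2030 at the start of car. The mir-991 and mir-992 precursors lay 2619 and 2733 bp from the peak shared with mir-310. In replicate 4 the nearest of the strongest summits lay 5415 bp from mir-991 and 5305 bp from mir-992, past the limit. In 47 of the 198 loci no summit of any of the 5 lists lay within 5 kb. Among them were mir-309, mir-959, mir-278, mir-137, the let-7 cluster and the mir-9b cluster. The same count over all 5 lists was not made for arm positions, gene starts or tRNA genes. Whether 47 loci is many or few is thus not known. The 3 precursors mir-10404-3, mir-10404-4 and mir-10404-5 on the X, whose mature RNAs share their seeds and whose reads may not be told apart, lay 194310 to 527366 bp from an IDR summit.

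**Figure D5:**
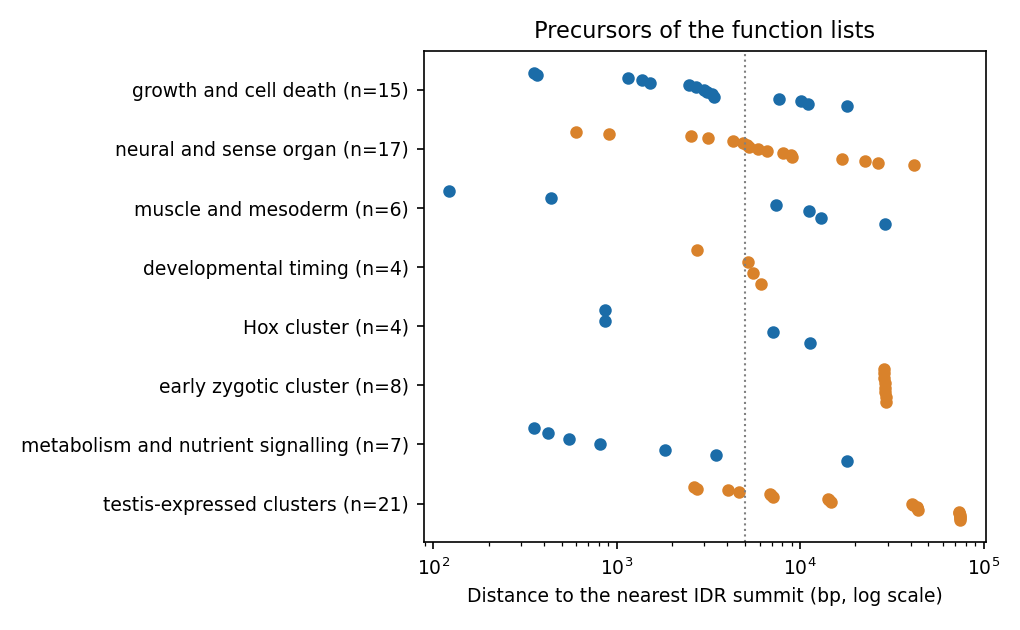
Distance (x axis, bp, log scale) from each precursor of the 8 function lists (rows, n precursors each) to the nearest IDR summit. Each row has 1 point per precursor, and mir-14 and mir-278 are drawn in both the growth and the metabolism row. The dotted line marks 5 kb. Most growth and metabolism precursors lie left of the line (11 of 15 and 6 of 7), the 8 of the early zygotic cluster lie together near 29 kb, and the let-7 and mir-9b clusters lie just right of it.

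Counting all 30000 pooled peaks, 144 of the 260 precursors had a summit within 5 kb (55.4%), 90 of 166 inside genes (54.2%) and 54 of 94 others (57.4%). Arm positions, gene starts and tRNA genes were not set against the pooled list, so these shares have no reference. With all 30000 peaks of each replicate list, the shares were 65.4%, 65.4% and 63.5% (mean 64.7% ± 1.11, SD, n = 3), while arm positions averaged 54.8% ± 0.985. Gene starts averaged 71.9% ± 0.415 and tRNA genes 87.4% ± 3.98 with the same replicate lists, both above precursors. Lists of this length place a summit within 5 kb of most positions. A nearby weak peak is seen at mir-9a, where a pooled summit and those of replicates 3 and 5 fell inside the hairpin and that of replicate 4 lay 29 bp away, with no IDR summit closer than 3136 bp.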

How the data were processed

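The authors called peaks on each replicate and on the pooled replicates against 1 shared control and made the IDR list from the result, per the labels and the deposited descriptions. The deposited signal score of each peak (column 7) has no stated scale and was used only to rank peaks within 1 list, and the summit is the peak start plus the offset. The aligner, the peak caller and its version, and the threshold on the IDR are unknown from the sources used here, and the control reads were not analysed here. The 7176 IDR peaks were the top 7176 of the pooled list by signal value, checked on the files. Genes came from Ensembl release 115, where gene biotype names precursors only as ncRNA, so transcript biotype was used; sequences came from RefSeq on the same Release 6 assembly (dm6). All positions are 1-based.

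Distance ran from the precursor to the summit, 0 inside it; upstream follows the precursor's strand. Shares have 95% Wilson intervals. The tools were pandas 2.3.3, scipy 1.17.1 and numpy 2.4.6 under Python 3.11.15, with matplotlib 3.10.9 for plots, and distances were tested on simulated data. The motifs TAATTA and AATATT, with GAGAGAG as the third motif, were searched within 50 bp of a summit on both strands. Differences between groups over replicates used the exact sign-flip permutation test. The precursors and function lists were chosen with earlier results of these data known. Of the function lists, ban, mir-263a and let-7 were matched as mir-ban, mir-bft and mir-let7. Named are precursors with a summit within 500 bp, the 10 loci with the strongest summit, the 5 with most summits, those at the 5 kb limit, examples from each list and loci with no summit; alternatives are in the closing section. The age field of the labels conflicts with the source name, which gives 4 to 16 hours and was followed. Whether the replicates came from separate cultures is not stated beyond their being biological replicates.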

Additional observations from a re-analysis of the deposited data

How the results depend on the processing

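The share of precursors with an IDR summit followed the distance and the length of the list. For all precursors, those inside protein-coding genes and the others, it was 11.5%, 11.4% and 11.7% within 1 kb, 19.2%, 17.5% and 22.3% within 2 kb, and 60.4%, 59.0% and 62.8% within 10 kb. With the 3588 strongest IDR peaks it was 26.2%, 27.1% and 24.5%, and with all pooled peaks 55.4%, 54.2% and 57.4%. Leaving out each replicate in turn, and keeping IDR peaks overlapped by strongest peaks of both remaining ones, gave 31.9 to 35.8% for all, 34.3 to 36.7% inside genes and 26.6 to 34.0% for others; fewer peaks enter (5452 to 5595). Arm positions were not set beside these alternative shares. None of them can thus be read against the share of arm positions at 5 kb of the full IDR list. Over replicates, the mean share was 64.7% with whole lists and 26.4% with the 3588 strongest. The median distance was 11208 bp with the 3588 strongest IDR peaks. Measuring to the peak edge, counting each locus once, same-strand hosts only and other locus widths moved no share beyond its interval. The difference inside minus other turned to -0.00854 points within 1 kb and -2.85 within 2 kb; the cause was not tested. It was 1.99 points within 10 kb. It was 16.5 points when only precursors with a same-strand host counted as inside. That setting moved precursors with only an opposite-strand host to the others, and in the IDR list the shares became 44.1% and 34.7%. The difference from gene starts was negative under every alternative run, -13.6 to -2.05 points. The differences over replicates were taken within each replicate. No paired analysis was possible because there is only 1 group of samples, so no replicate number can be shared between groups. The fixed list lengths and unknown depth limit all shares.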
